A study of Mus musculus with 6 samples.

Results

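Integrin genes of leukocytes were followed in Tot2 myeloid cells that had been given IRF8, KLF4 or an empty retroviral vector. The set was defined by name, as the 10 mouse genes Itgam, Itgax, Itgal, Itga4, Itgav, Itgb1, Itgb2, Itgb3, Itgb5 and Itgb7, and a probe was taken for a gene when its RefSeq accession belonged to that gene. This gave 17 probes of 55681 on the array and 10 genes of 20284 that could be matched. All 10 genes entered the test, for which at least 1 group had to have both of its arrays well above background, and 6 of them had several probes.

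Integrins are adhesion receptors of an α and a β subunit that reach the cell surface together as a heterodimer, so that the surface amount of a receptor depends on both chains. In leukocytes β2 (Itgb2) pairs with αM (Itgam, the CD11b of complement receptor 3), αX (Itgax, CD11c) and αL (Itgal, the CD11a of LFA-1), which bind complement fragments, fibrinogen and ICAM proteins. The α4 chain (Itga4) binds VCAM1 and fibronectin when paired with β1 (Itgb1) and the gut addressin MAdCAM1 when paired with β7 (Itgb7). The αV chain (Itgav) pairs with β1, β3 (Itgb3) or β5 (Itgb5) and binds vitronectin, osteopontin and other ligands with an RGD motif.

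Tot2 is a line of myeloid progenitors from a mouse without Irf8, and the control cells carry that background as the transduced ones do. Cells received the vector MSCV-puro as control, MSCV-IRF8FLAG or MSCV-KLF4FLAG, which encode the transcription factors IRF8 and KLF4 with a FLAG tag. The medium held granulocyte-macrophage colony-stimulating factor at 5 ng/ml. Puromycin at 2 µg/ml selected the transduced cells from 48 hr on, and RNA was taken on day 4. Total RNA was labelled with Cy3 and hybridised to 6 single-colour Agilent arrays, 2 per group, with the numbers 1 and 2 standing for separate experiments, described as independent by the submitters. Values are log2 signals relative to the 75th percentile of each array's intensity, fold changes are differences of their group means, and adjusted p-values are from a limma fit of all 6 arrays with Benjamini-Hochberg adjustment over 13247 genes and a threshold of 0.05. All SEs are on the log2 scale with n = 2 per group. The p-values measure the spread between these 6 arrays of 1 cell line.

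Windows around the transcription start are shown for Itgam and Itgax, neighbours on chromosome 7 that changed by very unequal amounts, and for Itgb7, the β gene with the largest rise. The windows come from RefSeq on GRCm38.p6, run from 250 bases before to 50 bases after the start that the sequence table uses, and lie at chr7:128062390-128062689 (plus strand), chr7:128129300-128129599 (plus strand) and chr15:102231886-102232185 (minus strand). Capitals mark the letters GAGGAA, a core bound by PU.1 and related ETS factors, or CACCC, a box bound by Krüppel-like factors, on either strand, so that TTCCTC and GGGTG are their reverse complements.
Itgam: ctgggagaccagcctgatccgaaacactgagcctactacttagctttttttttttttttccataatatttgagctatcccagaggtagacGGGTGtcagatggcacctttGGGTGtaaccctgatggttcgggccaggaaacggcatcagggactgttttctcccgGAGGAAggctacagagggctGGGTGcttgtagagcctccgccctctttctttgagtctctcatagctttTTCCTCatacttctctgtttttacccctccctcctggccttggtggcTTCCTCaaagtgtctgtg
Itgax: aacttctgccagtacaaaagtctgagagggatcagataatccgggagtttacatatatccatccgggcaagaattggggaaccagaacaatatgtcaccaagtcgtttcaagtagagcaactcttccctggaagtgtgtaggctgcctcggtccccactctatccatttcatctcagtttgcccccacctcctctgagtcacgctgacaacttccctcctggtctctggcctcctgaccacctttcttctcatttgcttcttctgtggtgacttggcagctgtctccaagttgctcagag
Itgb7: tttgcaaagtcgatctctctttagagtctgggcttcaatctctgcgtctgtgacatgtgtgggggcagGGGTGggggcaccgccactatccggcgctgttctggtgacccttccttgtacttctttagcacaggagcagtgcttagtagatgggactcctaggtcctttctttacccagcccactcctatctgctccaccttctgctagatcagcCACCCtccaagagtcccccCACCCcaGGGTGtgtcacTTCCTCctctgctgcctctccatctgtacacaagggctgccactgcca
Itgam held 3 matches to GAGGAA and 3 to CACCC, Itgb7 held 1 and 4, and these letters were not in the Itgax window. Among 32851 windows of this length, 28.3% held GAGGAA and 57.5% held CACCC on either strand. The composite element of ETS and IRF factors (GGAA, any 2 bases, GAAA, in 2.72% of windows) and the interferon-stimulated response element (GAAA, any 2 bases, GAAA, in 3.44%) were searched on both strands as well, and matches to these can overlap each other and GAGGAA. Neither was in any of the 7 members' windows, which also include Itga4, Itgav, Itgb1 and Itgb5. Itgal, Itgb2 and Itgb3 had no window in the sequence table and were not searched. In the annotation Itgam (chromosome 7, 128062640 to 128118491) and Itgax (128129526 to 128150657) are 11034 bases apart with 0 protein-coding genes between them, and Itgal (127296139 to 127335137) lies 727502 bases before Itgam with 35 between. Itgb7 runs from 102215994 to 102233405 on chromosome 15, so that its window lies inside the annotated gene and not at its outer end. The Itgav window lies inside its gene as well.

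On the arrays, 47.1% to 56.8% of probes were well above background and 0 spots were saturated, and the intensity at the 75th percentile was 436 to 974. Across genes, which are not independent replicates, arrays correlated at r = 0.993 to 0.995 within groups and at 0.889 to 0.960 between them. The Irf8 probe was well above background on both control arrays, at a log2 signal of 0.57 ± 0.10 (SD, n = 2), although the line is described as coming from a mouse without Irf8. Irf8 signal was 5.39-fold above control on the IRF8-labelled arrays (log2 2.43 ± 0.10 (SE), limma adjusted p = 5.37e-05) and 3.04-fold above it on the KLF4-labelled arrays. Klf4 signal was 63.2-fold above control on the IRF8-labelled arrays and differed from control by 0.00 ± 0.16 (SE) on the KLF4-labelled arrays (limma adjusted p = 0.987). The positions of these probes were not used here, and whether they read the transduced sequence is not known. Because Klf4 signal did not rise with the KLF4 label, groups are named by their labels throughout, as IRF8-labelled and KLF4-labelled. Csf1r and Adgre1, markers of the monocyte and macrophage lineage, rose 45.6-fold and 21.3-fold in IRF8-labelled cells and 13.8-fold and 7.30-fold in KLF4-labelled cells.

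Marker genes of other cell types moved with the groups too. The summed signal of 9 neutrophil genes, in units of each array's 75th percentile, was 1481 to 1968 in control, 336 to 430 in IRF8-labelled and 940 to 1417 in KLF4-labelled cells. For 6 macrophage genes the sum was 11.3 to 11.4, 204 to 209 and 64.5 to 64.9 in the same order, and for 7 dendritic cell genes it was 0.268 to 0.314, 259 to 265 and 0.732 to 0.761. All 9 neutrophil genes were above background in every group. In IRF8-labelled cells 8 of the 9 were lower than control, with a list median of -5.09, where 35.7% of all genes were lower. Mpo, the brightest of them in control, did not pass there (log2 -0.87, limma adjusted p = 0.0898). Of the macrophage genes, Msr1 and Mertk were below background on both control arrays, and Mertk on both IRF8-labelled arrays. Ccr7, H2-Ab1, Xcr1 and Clec9a of the dendritic list were below background on both control arrays, Ccr7, Xcr1 and Clec9a on both KLF4-labelled arrays, and Xcr1 on both IRF8-labelled arrays. In IRF8-labelled cells mean log2 signals were 7.39 for Cd74 and 6.44 for H2-Ab1, against 2.49 for Ccr7, -1.64 for Zbtb46 and -3.60 for Flt3. Flt3 did not pass against control there (limma adjusted p = 0.0591). The part of these shifts in the results below was not tested, and in bulk RNA more cells of a type cannot be told apart from more RNA per cell. Sums for 6 basophil and mast cell genes were 3.98 to 4.19, 0.297 to 0.407 and 1.59 to 1.70, for 6 lymphocyte genes 1.01 to 1.47, 1.62 to 2.55 and 0.847 to 1.56, and for 7 fibroblast genes 0.132 to 0.227 over all groups. Of 7 platelet genes, Gp1bb was above background on both arrays of every group and Itga2b on 1 IRF8-labelled array. Pf4, Ppbp, Gp9, Gp1ba and Gp6 were not above background on any array.

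In IRF8-labelled cells 6 of the 10 integrin genes were higher than in control (Itgam, Itgax, Itgal, Itgb1, Itgb2 and Itgb7), 3 were lower (Itga4, Itgb3 and Itgb5) and Itgav did not pass the test. The Itgb3 call compares signals of which only 1 control array was above background. Over all genes tested, 61.5% passed in this comparison, 25.8% of genes as higher and 35.7% as lower. In KLF4-labelled cells 5 were higher (Itgax, Itgb1, Itgb2, Itgb3 and Itgb7) and 0 lower, against 19.2% of all genes called, 10.4% higher and 8.85% lower. Those 2 comparisons share the control arrays. The arrays did not overlap between groups for 9 of the 10 in each, Itgav being the exception in IRF8-labelled and Itga4 in KLF4-labelled cells, against 80.3% and 65.0% of all genes. The split of all genes called in KLF4-labelled cells, 1372 higher and 1172 lower, depended on the scaling: it was 1558 and 768 with quantile normalization, 1259 and 199 with median scaling, 778 and 83 with spike-in scaling and 1374 and 736 with the deposited value table.

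With the replicate number as a block, which here follows the experiment and the slide, 8 integrin genes were higher and 2 lower in KLF4-labelled cells, where 50.9% of all genes passed (16.5% higher and 34.4% lower). The genes gained were Itgam, Itgal and Itgav as higher and Itga4 and Itgb5 as lower. Itgav passed with the block as higher in IRF8-labelled cells too, where 9949 of 13247 genes passed (4149 higher and 5800 lower). The median change of the 10 integrin genes was 0.84 in IRF8-labelled and 0.54 in KLF4-labelled cells on the log2 scale, where the medians of all genes tested were -0.13 and -0.16.

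**Figure D1:**
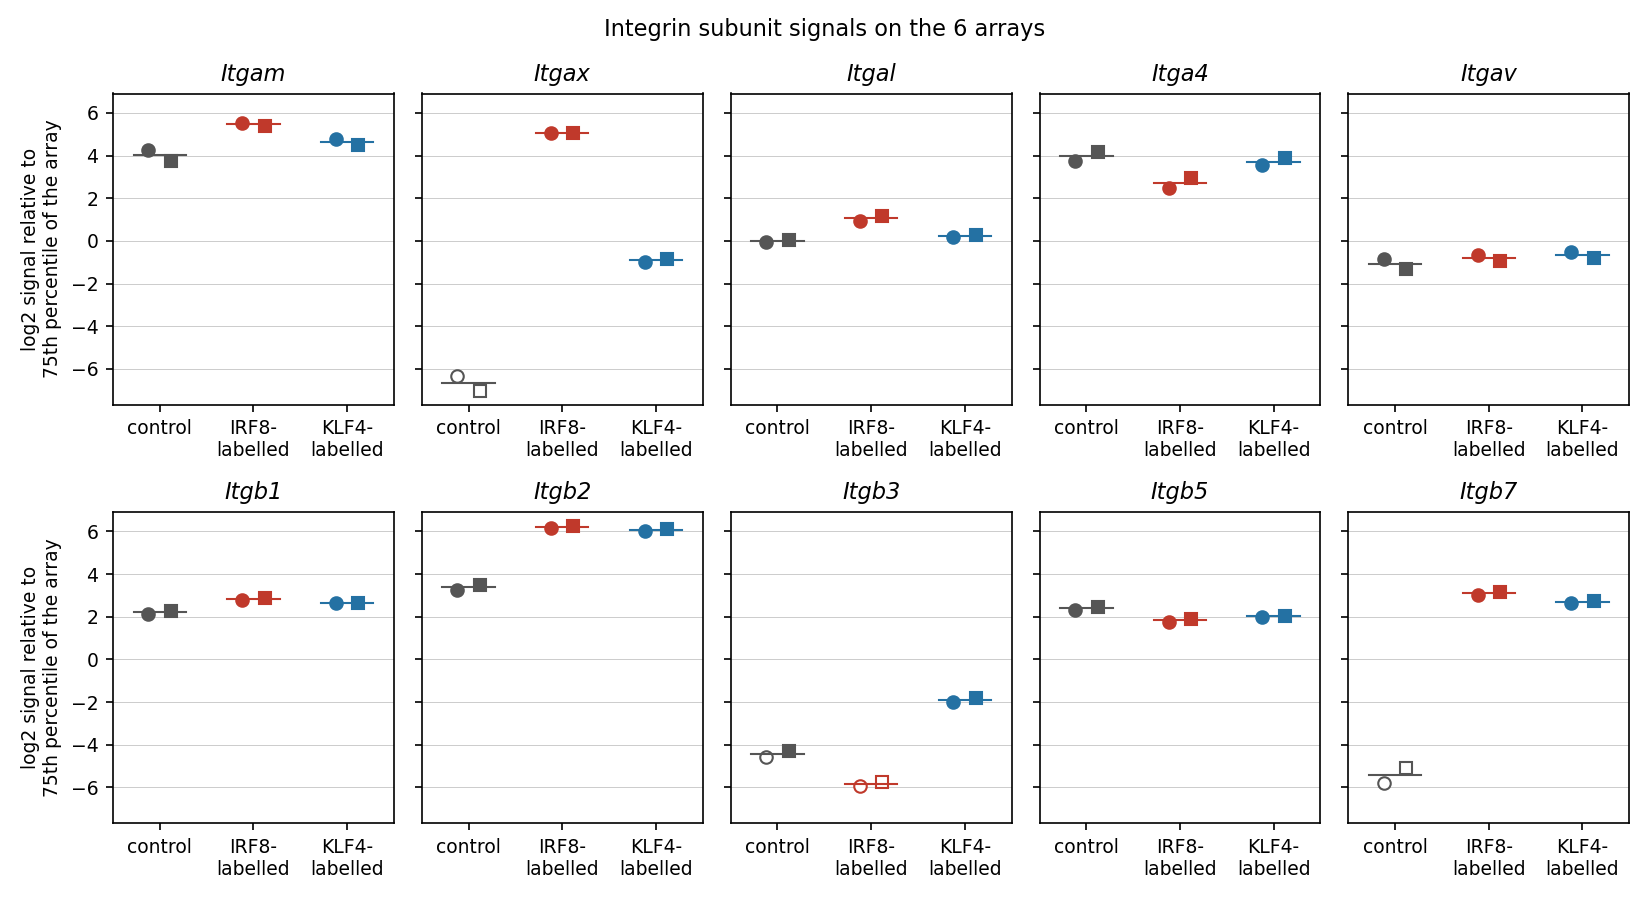
Log2 signal relative to each array's 75th percentile for the 10 integrin genes, with circles for experiment 1, squares for experiment 2, a line at each group mean and open symbols for arrays not well above background. Itgax and Itgb7 were below background on both control arrays and Itgb3 on both IRF8-labelled arrays, while the Itgav values of control and IRF8-labelled cells overlap.

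The β2 family held the largest change of the set and a β chain that rose in both transduced groups. Itgb2 signals were 3.27 and 3.51 in control, 6.17 and 6.25 in IRF8-labelled and 6.0 and 6.12 in KLF4-labelled cells. All 4 transduced arrays lay above both control arrays, and the KLF4-labelled arrays lay just below the IRF8-labelled ones. Itgb2 rose 7.06-fold in IRF8-labelled cells (log2 2.82 ± 0.12 (SE), limma adjusted p = 6.26e-05) and 6.38-fold in KLF4-labelled cells (2.67 ± 0.12 (SE), adjusted p = 2.19e-04). The difference between them was 0.15 (95% interval -0.16 to 0.45, limma adjusted p = 0.357), and its sign turned under median and spike-in scaling.

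Itgax, whose product CD11c marks dendritic cells and many tissue macrophages, read -6.34 and -7.02 in control, 5.04 and 5.05 in IRF8-labelled and -0.98 and -0.85 in KLF4-labelled cells. The intensities behind these were 6.78 and 6.58 in control, 14386 and 29150 in IRF8-labelled and 272 and 539 in KLF4-labelled cells, and neither control spot was well above background. The 3 groups were far apart, with control lowest and IRF8-labelled highest. Against the lowest signal well above background, Itgax was at least 929-fold higher in IRF8-labelled cells (limma adjusted p = 9.44e-06) and at least 14.9-fold higher in KLF4-labelled cells (adjusted p = 1.57e-04). Directly compared, IRF8-labelled exceeded KLF4-labelled cells 62.4-fold (log2 5.96 ± 0.23 (SE), limma adjusted p = 1.35e-04). The dendritic cell genes, with summed signals of 259 to 265 in IRF8-labelled and 0.732 to 0.761 in KLF4-labelled cells, differed between the same groups. That sum is set mainly by Cd74 and H2-Ab1, with mean log2 signals of 7.39 and 6.44 in IRF8-labelled cells. Ccr7, Zbtb46 and Flt3 read 2.49, -1.64 and -3.60 there. The part of the dendritic list in the Itgax result was not tested.

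Itgam was read by 3 probes that gave the same direction and different sizes. The brightest, A_55_P1977934, read 4.28 and 3.75 in control, 5.54 and 5.41 in IRF8-labelled and 4.79 and 4.51 in KLF4-labelled cells. The groups did not overlap, but the KLF4-labelled arrays lay close to the higher control array. By this probe Itgam rose 2.76-fold in IRF8-labelled cells (log2 1.46 ± 0.21 (SE), limma adjusted p = 0.00269), and in KLF4-labelled cells the difference was 0.64 ± 0.21 (SE) with adjusted p = 0.0926, or 0.0200 with the replicate block.

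The probe A_55_P1977929, for the same transcript accession, read 0.62 and 0.52 in control, 4.83 and 4.77 in IRF8-labelled and 2.96 and 2.93 in KLF4-labelled cells. These are changes of 18.8-fold and 5.19-fold (limma adjusted p over all 29356 probes tested = 3.47e-05 and 3.58e-04). The probe A_55_P1977926, for another Itgam accession, gave 4.69-fold and 2.5-fold (adjusted p over probes = 1.69e-04 and 0.00264). For Itgam the direction therefore held over the 3 probes and the size did not, by log2 1.46 to 4.23 in IRF8-labelled and 0.64 to 2.38 in KLF4-labelled cells.

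Itgal, the α chain of LFA-1, read -0.05 and 0.07 in control, 0.95 and 1.17 in IRF8-labelled and 0.19 and 0.30 in KLF4-labelled cells. Only the IRF8-labelled arrays stood well clear of the rest. It rose 2.07-fold in IRF8-labelled cells (log2 1.05 ± 0.11 (SE), limma adjusted p = 0.00102), a call lost with spike-in scaling (adjusted p = 0.0575). In KLF4-labelled cells the difference was 0.23 (95% interval -0.06 to 0.52, limma adjusted p = 0.199, or 0.0333 with the replicate block). A second Itgal probe gave 1.06 and 0.22.

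**Figure D2:**
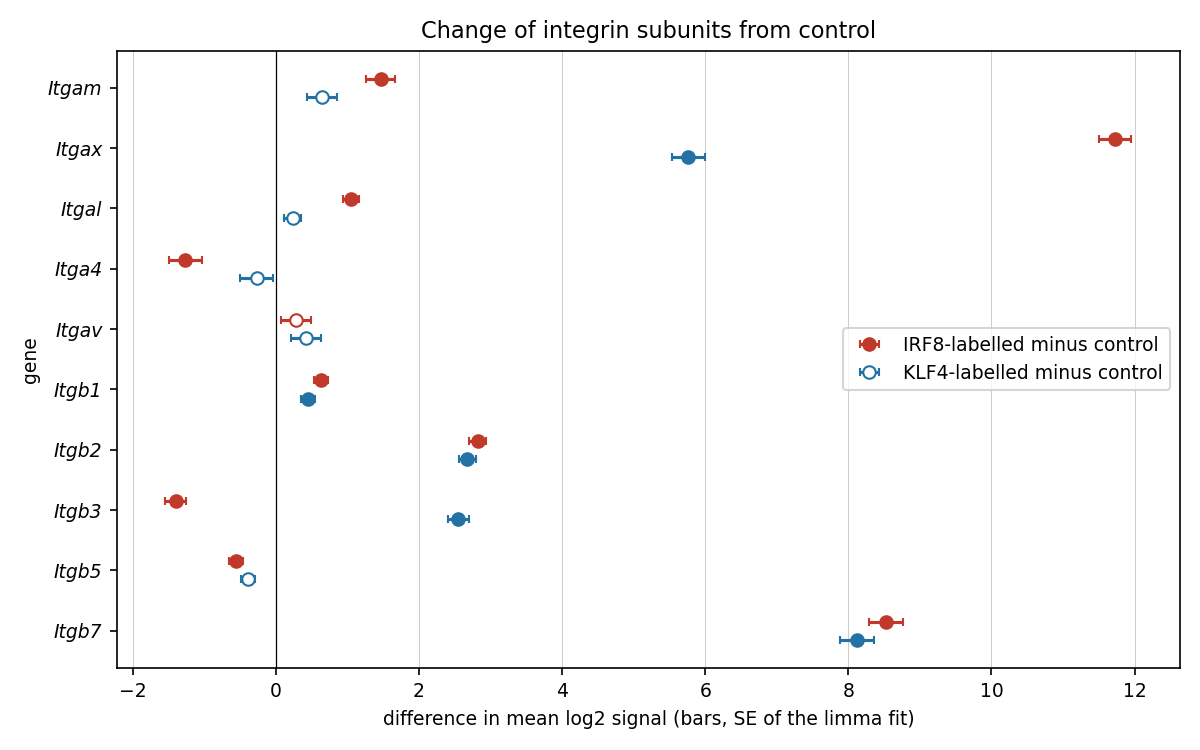
Difference in mean log2 signal from control for the 10 integrin genes in IRF8-labelled and KLF4-labelled cells, with bars for the SE of the limma fit and filled symbols for adjusted p under 0.05. The points of the transduced groups lie 0.15 apart for Itgb2 and 0.40 apart for Itgb7, Itgax lies at 11.73 and 5.76, and Itgb3 lies on opposite sides of 0; the values of Itgax, Itgb7 and Itgb3 in IRF8-labelled cells rest on a group below background.

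In IRF8-labelled cells the chains of the α4 receptors moved in different directions. Itgb7 intensities were 10.1 and 25.2 in control, 3536 and 7988 in IRF8-labelled and 3401 and 6461 in KLF4-labelled cells, or log2 signals of -5.77 and -5.08, 3.02 and 3.18, and 2.66 and 2.73. Both control spots were not well above background and all 4 transduced arrays were bright. Itgb7 was at least 223-fold higher in IRF8-labelled cells (limma adjusted p = 2.10e-05) and at least 169-fold higher in KLF4-labelled cells (adjusted p = 7.21e-05). The transduced groups differed by 0.40 (95% interval -0.21 to 1.02, limma adjusted p = 0.220); it passed in the fit of only the groups compared and in the fits without either control array, with adjusted p down to 0.0387.

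Itga4 went the other way. Its signals were 3.77 and 4.18 in control, 2.48 and 2.94 in IRF8-labelled and 3.54 and 3.87 in KLF4-labelled cells. The IRF8-labelled arrays were the lowest, and those of control and KLF4-labelled cells overlapped. Itga4 fell by 1.27 ± 0.23 (SE) in IRF8-labelled cells, or 2.40-fold (limma adjusted p = 0.00654), and was lower than in KLF4-labelled cells too (log2 -1.0 ± 0.23 (SE), adjusted p = 0.0194). In KLF4-labelled cells its difference from control was -0.27 (95% interval -0.86 to 0.33, limma adjusted p = 0.433, or 0.0292 with the replicate block), and a second probe gave 0.07. That probe gave -0.92 for IRF8-labelled cells against control.

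Itgb1, the β chain shared by most adhesion receptors for matrix, read 2.15 and 2.29 in control, 2.80 and 2.90 in IRF8-labelled and 2.66 and 2.67 in KLF4-labelled cells. Every transduced array exceeded both control arrays, by small amounts. Its rise in IRF8-labelled cells was 1.55-fold (log2 0.63 ± 0.10 (SE), limma adjusted p = 0.00334), a call lost with spike-in scaling (adjusted p = 0.290). In KLF4-labelled cells it was 1.36-fold (log2 0.45 ± 0.10 (SE), limma adjusted p = 0.0358). That call was lost in 13 of 20 alternatives, among them the fits that left out any 1 of the 6 arrays, with adjusted p from 0.0123 to 0.962 over the 20.

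Among the αV receptors, the call of the α chain depended on the setting and the β chains moved apart. Itgav signals were -0.83 and -1.33 in control, -0.67 and -0.93 in IRF8-labelled and -0.51 and -0.80 in KLF4-labelled cells. Its differences from control were 0.28 (95% interval -0.27 to 0.83, limma adjusted p = 0.303) and 0.42 (interval -0.13 to 0.97, adjusted p = 0.213), and with the replicate block the adjusted p-values were 0.0391 and 0.0232. With the mean of its probes in place of the brightest, the difference in IRF8-labelled cells passed as well (adjusted p = 0.0222). The control arrays lay further apart from each other than either difference. Within experiments 1 and 2 the differences were 0.16 and 0.40 in IRF8-labelled and 0.32 and 0.52 in KLF4-labelled cells.

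Itgb3, the β chain of the vitronectin receptor of osteoclasts and of the platelet fibrinogen receptor, read -4.58 and -4.31 in control, -5.96 and -5.73 in IRF8-labelled and -1.99 and -1.81 in KLF4-labelled cells. The KLF4-labelled arrays alone were clearly above background, 1 of the 2 control arrays was just above it, and neither IRF8-labelled array was. Itgb3 rose 5.85-fold in KLF4-labelled cells (log2 2.55 ± 0.15 (SE), limma adjusted p = 5.11e-04). In IRF8-labelled cells the fitted Itgb3 difference from control was log2 -1.40 ± 0.15 (SE), with limma adjusted p = 9.02e-04. That adjusted p was up to 0.212 with normexp background correction or the mean of both probes. No bound is given against control, because only 1 of the 2 control arrays was above background. Set against the KLF4-labelled group, Itgb3 of IRF8-labelled cells was at least 9.43-fold lower (limma adjusted p = 1.30e-04). A second Itgb3 probe was not above background on any array and was not tested.

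Itgb5, the other αV partner, read 2.34 and 2.47 in control, 1.77 and 1.92 in IRF8-labelled and 1.97 and 2.06 in KLF4-labelled cells. Both transduced groups lay below control. It fell by 0.56 ± 0.10 (SE) in IRF8-labelled cells (1.47-fold, limma adjusted p = 0.00622, or 0.161 with spike-in scaling), and the difference in KLF4-labelled cells was -0.39 (95% interval -0.65 to -0.13, adjusted p = 0.0566, or 0.0109 with the replicate block).

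**Figure D3:**
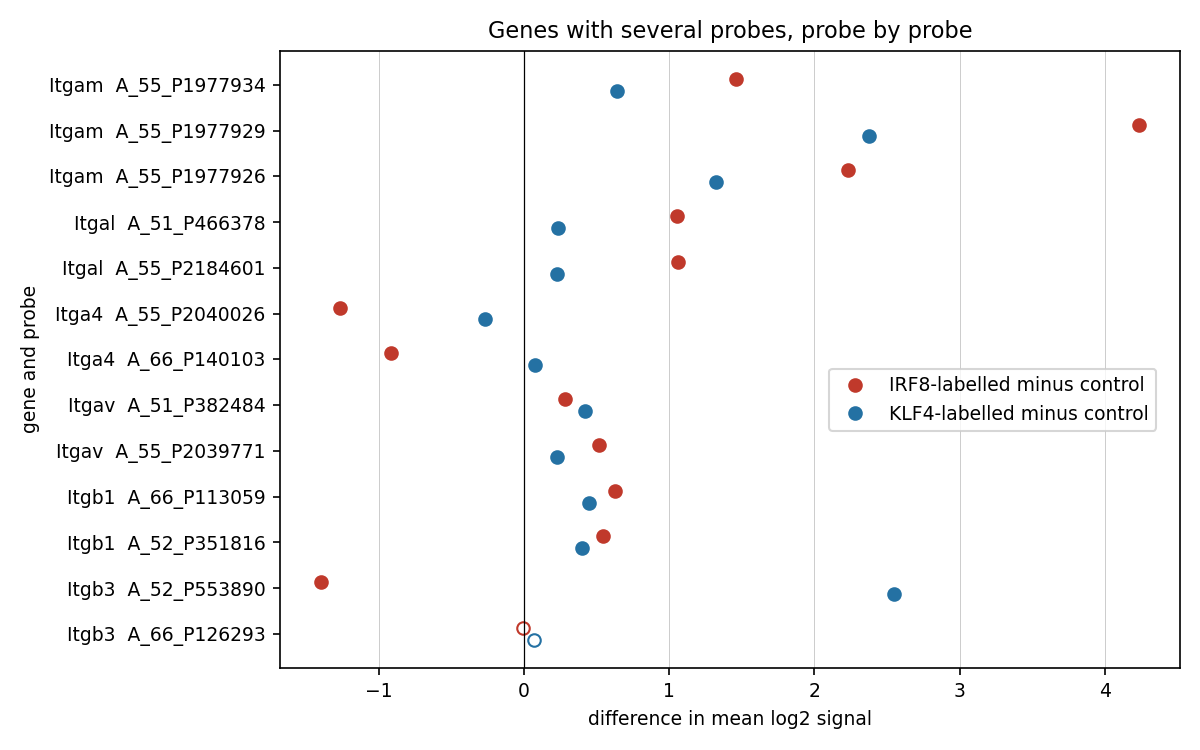
Difference in mean log2 signal from control for each probe of the 6 integrin genes with several probes; the open symbols are the Itgb3 probe that was not above background on any array and was not tested. The probes of Itgal and of Itgb1 lie close to each other, those of Itgam spread from 1.46 to 4.23 in IRF8-labelled cells, and the Itga4 probes lie on either side of 0 in KLF4-labelled cells.

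Setting the transduced groups against each other, 3 of the 10 integrin genes were higher in the IRF8-labelled group (Itgax, Itgam and Itgal) and 2 were lower (Itga4 and Itgb3), where 50.5% of all genes passed, 23.7% higher and 26.8% lower; with median scaling the genes called were 2072 higher and 3851 lower, against 3141 and 3554. With the replicate block Itgb5 was lower as well (adjusted p = 0.0386), where 67.3% of all genes passed (31.8% higher and 35.5% lower). The arrays did not overlap for 9 of the 10, all but Itgav, and for 75.5% of all genes. The median of the 10 was 0.16 and that of all genes -0.01. Thus all 3 genes higher in IRF8-labelled cells encode α partners of β2, while Itgb2 itself differed by 0.15. The Itgam difference was 0.82 ± 0.21 (SE) with limma adjusted p = 0.0254, and it was lost with spike-in scaling, without the filter on dim probes, and without either IRF8-labelled or either KLF4-labelled array (adjusted p up to 0.189). That of Itgal was 0.82 ± 0.11 (SE) with adjusted p = 0.00361, lost with spike-in scaling (0.239). Itga4 lost its call with spike-in scaling, without the filter, without IRF8-labelled replicate 1 and without KLF4-labelled replicate 2 (adjusted p up to 0.0954). Of the genes with no call, Itgb1 differed by 0.18 (95% interval -0.06 to 0.43, limma adjusted p = 0.177), Itgb5 by -0.17 (interval -0.43 to 0.09, adjusted p = 0.220) and Itgav by -0.14 (interval -0.68 to 0.41, adjusted p = 0.623), the last with a sign that turned with its second probe (0.29).

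Partner genes were then read together, as the change of the α gene minus the change of the β gene on the same arrays, a quantity in which the scaling of the arrays cancels. It shows unequal change and says nothing of which chain was more abundant, since probes differ in brightness. Each was tested with an exact two-sided permutation test, whose p with 2 arrays against 2 cannot fall below 0.333. For Itgam with Itgb2 the balance was -1.36 in IRF8-labelled and -2.03 in KLF4-labelled cells, and for Itgal with Itgb2 -1.77 and -2.44 (exact permutation p = 0.333 for each). For Itgax with Itgb2 it was at least 7.04 and at least 1.22, using the bound for Itgax in control; with normexp background correction the balance in KLF4-labelled cells was -0.17. The change of Itgb2 was thus larger than those of Itgam and Itgal in both groups, and smaller than that of Itgax. The Itgam balance rests on its brightest probe: by the probe A_55_P1977929 Itgam changed by 4.23 in IRF8-labelled cells, more than Itgb2.

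The balance of Itga4 with Itgb1 was -1.89 in IRF8-labelled and -0.71 in KLF4-labelled cells, and with Itgb7, whose control signal is only a bound, it was -9.07 or lower and -7.66 or lower. For Itgav with Itgb5 it was 0.84 and 0.81 (exact permutation p = 0.333 for each), and with Itgb1 -0.35 (p = 0.667) and -0.03 (p = 1), where the arrays of the groups overlapped. With Itgb3 the fitted balance was 1.68 in IRF8-labelled and -2.13 in KLF4-labelled cells, opposite signs in the transduced groups. The first value rests on Itgb3 signals of which only 1 control array was above background. Between those groups it was at least 3.1 (exact permutation p = 0.333).

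**Figure D4:**
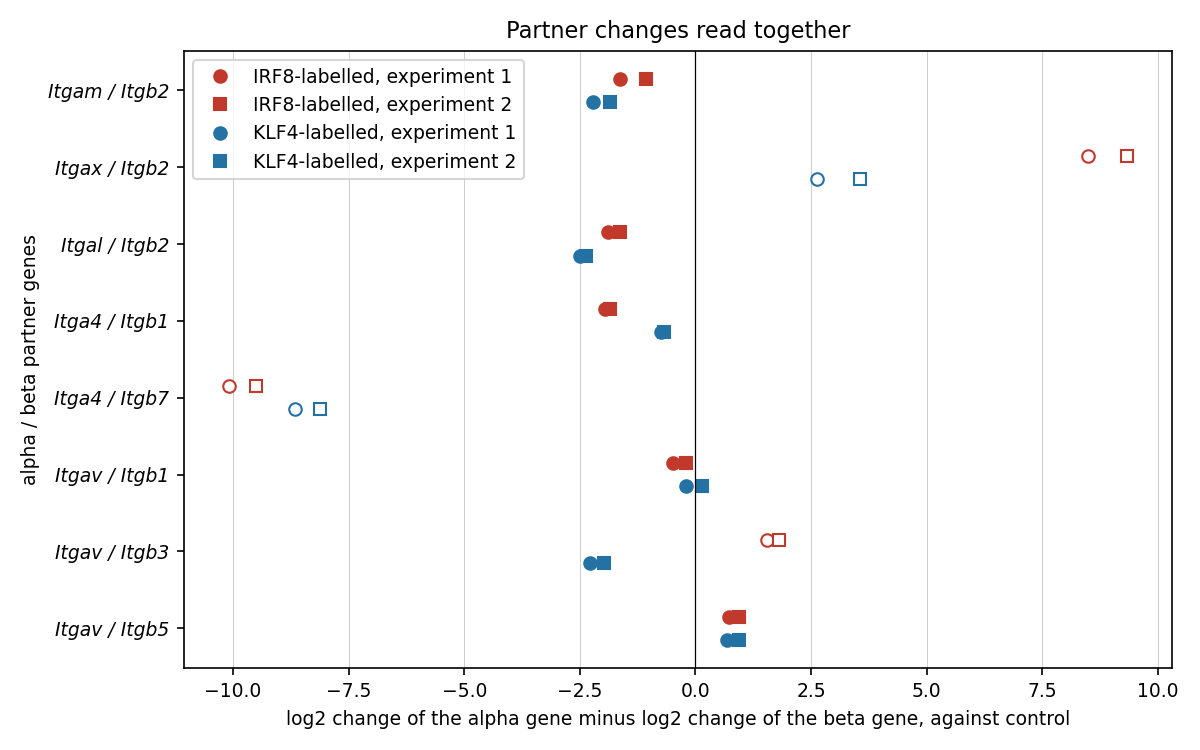
Log2 change of the α gene minus log2 change of its β partner for 8 pairs, within experiment 1 (circles) and experiment 2 (squares); open symbols are fitted values in which 1 partner was below background in a group. Both experiments fall on the same side of 0 for each pair except Itgav with Itgb1 in KLF4-labelled cells, at -0.20 and 0.15.

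The genes whose 6 centred log2 values lay nearest to those of each integrin gene, by Euclidean distance over the arrays, were found among all genes tested. For Itgax they were Ccl2 (distance 1.37), Cttnbp2nl and Ccnd1, for Itgb7 S100a4 (0.455), Atp6v0d2 and Wfdc18, and for Itgb3 Lypd6b (0.581), Ly6a and Ces2c. Itgb2 lay nearest to Rilpl1 (0.216), Spaca9 and Fcna, and Itgam to Cpeb4 (0.129), H2-T10 and Klc1. Itgb5 had Zfp180 (0.00934), Xlr4a and Erg28, Itgal had Washc4 (0.0487), Wnt6 and Tmem9b, and Itgb1 had Rhoq (0.0634), Cept1 and Mcemp1. Those of Itga4 were Mphosph10 (0.113), Exosc1 and Zfp239, and those of Itgav Sema6a (0.190), Olfr1402 and Gimap4.

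Of 17 other integrin subunits, 15 were matched and 6 were tested. In IRF8-labelled cells 4 of the 6 were higher and 1 was lower (median 0.76), where 61.5% of all genes passed (25.8% higher and 35.7% lower). Those higher were 2 with quantile or spike-in scaling or with normexp. Those lower were 2 with the replicate block, where 9949 of 13247 genes passed (4149 higher and 5800 lower). In KLF4-labelled cells, where 19.2% of all genes passed, 1 was higher and 1 lower (median -0.40), and the lower one lost its call without either control or either KLF4-labelled array, while 3 were lower with the replicate block (50.9% of all genes passing). Itga1, the α chain of a collagen receptor, rose 29.2-fold in IRF8-labelled cells (log2 4.87 ± 0.16 (SE), limma adjusted p = 3.22e-05) and fell by 0.72 ± 0.16 (SE) in KLF4-labelled cells (adjusted p = 0.0407, a call lost in 15 of 19 alternatives). Between those groups Itga1 differed 48.0-fold (adjusted p = 8.10e-05). Itga5, which forms the classical fibronectin receptor with β1, rose 2.19-fold and 2.39-fold (SE 0.14, adjusted p = 0.00142 and 0.00442). Itgb2l, a close relative of Itgb2 known from mouse neutrophils, was 95.2-fold lower in IRF8-labelled cells, where 1 of 2 arrays was above background (log2 -6.57 ± 0.26 (SE), limma adjusted p = 5.25e-05), and differed by -1.02 in KLF4-labelled cells (adjusted p = 0.0536). The neutrophil list moved the same way as Itgb2l, and its part was not tested. Itgad, the next integrin gene after Itgax on chromosome 7 at 23275 bases, was not above background on any array. Itga7 rose by 0.81 with 1 of 2 control arrays above background (adjusted p = 0.0423, or 0.0677 with the replicate block), a call lost in 9 of 18 alternatives. Itgb4 was 0.73 higher in the IRF8-labelled than in the KLF4-labelled group (adjusted p = 0.0208), lost in 8 of 19.

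Of 38 genes of integrin activation and of the link to the cytoskeleton, 34 were tested, and 20 were higher and 4 lower in IRF8-labelled cells (median 0.66), against 25.8% of all genes higher and 35.7% lower. Those higher were 13 with spike-in scaling. In KLF4-labelled cells 10 were higher and 1 lower (median 0.25), against 10.4% and 8.85% of all genes, or 18 and 2 with the replicate block, against 16.5% and 34.4%; those higher were 5 with spike-in scaling, with normexp or without the filter on dim probes, 6 without control replicate 1 or either IRF8-labelled array and 4 without either KLF4-labelled array, and the 1 lower lost its call without any 1 array other than control replicate 2. Fgr, a Src-family kinase that signals from β2 integrins in myeloid cells, rose 17.0-fold in IRF8-labelled cells (log2 4.08, SE 0.08, limma adjusted p = 1.12e-05) and 80.1-fold in KLF4-labelled cells (log2 6.32, SE 0.08, limma adjusted p = 1.27e-05). Fgr was 4.73-fold lower in the IRF8-labelled than in the KLF4-labelled group.

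Lims2, a LIM-domain partner of integrin-linked kinase, rose 102-fold in KLF4-labelled cells, where 1 of 2 control arrays was above background (log2 6.67 ± 0.09 (SE), adjusted p = 1.27e-05), and was 24.7-fold lower in the IRF8-labelled than in the KLF4-labelled group. Lims2 rose in IRF8-labelled cells too, by 4.13-fold against the same control arrays (limma adjusted p = 7.59e-05). Fyb, the adaptor ADAP, was in IRF8-labelled cells at least 5.95-fold higher than in control (adjusted p = 2.94e-04) and at least 7.64-fold higher than in KLF4-labelled cells (adjusted p = 0.00126). Zyx, the focal adhesion protein zyxin, rose 5.99-fold in IRF8-labelled cells (log2 2.58 ± 0.12 (SE), adjusted p = 8.48e-05) and was 4.71-fold higher than in KLF4-labelled cells. Tln2, a talin that links β chains to actin, rose 2.70-fold in KLF4-labelled cells with 1 of 2 control arrays above background (limma adjusted p = 0.00952). That call was lost in 3 of 18 alternatives, with adjusted p up to 0.336 and log2 changes down to 0.38. Between the transduced groups 14 of the 34 were higher and 7 lower in IRF8-labelled cells (median 0.27); of all genes 23.7% were higher and 26.8% lower. Those higher were 3 with spike-in scaling, and 9 without the filter, without either IRF8-labelled array or without KLF4-labelled replicate 2, and those lower were 4 without either IRF8-labelled array or among genes above background on all arrays.

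Of 23 genes of ligands of these receptors, 15 were tested, and 5 were higher and 7 lower in IRF8-labelled cells (median 0.06), where 25.8% of all genes were higher and 35.7% lower. In KLF4-labelled cells 8 were higher and 1 lower (median 0.51), where 10.4% of all genes were higher and 8.85% lower; the lower count was 2 without control replicate 1 and 0 with spike-in scaling or normexp. Mfge8, an RGD protein that bridges αV integrins to dying cells, rose 269.6-fold in IRF8-labelled (log2 8.07 ± 0.23 (SE), limma adjusted p = 2.10e-05) and 13.5-fold in KLF4-labelled cells (3.75 ± 0.23 (SE), adjusted p = 5.98e-04). Spp1, the αV ligand osteopontin, rose 6.40-fold and 5.81-fold, and the β2 ligand gene Icam1 rose 5.44-fold in IRF8-labelled cells (SEs up to 0.21, adjusted p from 2.41e-04 to 0.00111), while Icam2 was 4.90-fold lower there (adjusted p = 9.24e-04). Icam1 rose in KLF4-labelled cells too, by 3.17-fold (limma adjusted p = 0.00834).

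In KLF4-labelled cells Jam2 and Thbs1 rose 9.44-fold and 8.31-fold (SEs up to 0.14, adjusted p up to 2.27e-04). Between the transduced groups 4 ligand genes were higher and 8 lower in IRF8-labelled cells (median -0.59), where 23.7% of all genes were higher and 26.8% lower. Those higher were 2 without IRF8-labelled replicate 1 and 2 with spike-in scaling. Thbs1, which encodes thrombospondin 1, was 8.0-fold lower, Jam2 at least 26.0-fold lower, and Vcam1, the counter-receptor of α4β1, 6.88-fold lower in the IRF8-labelled than in the KLF4-labelled group (SEs up to 0.14, limma adjusted p from 3.06e-05 to 1.92e-04).

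**Figure D5:**
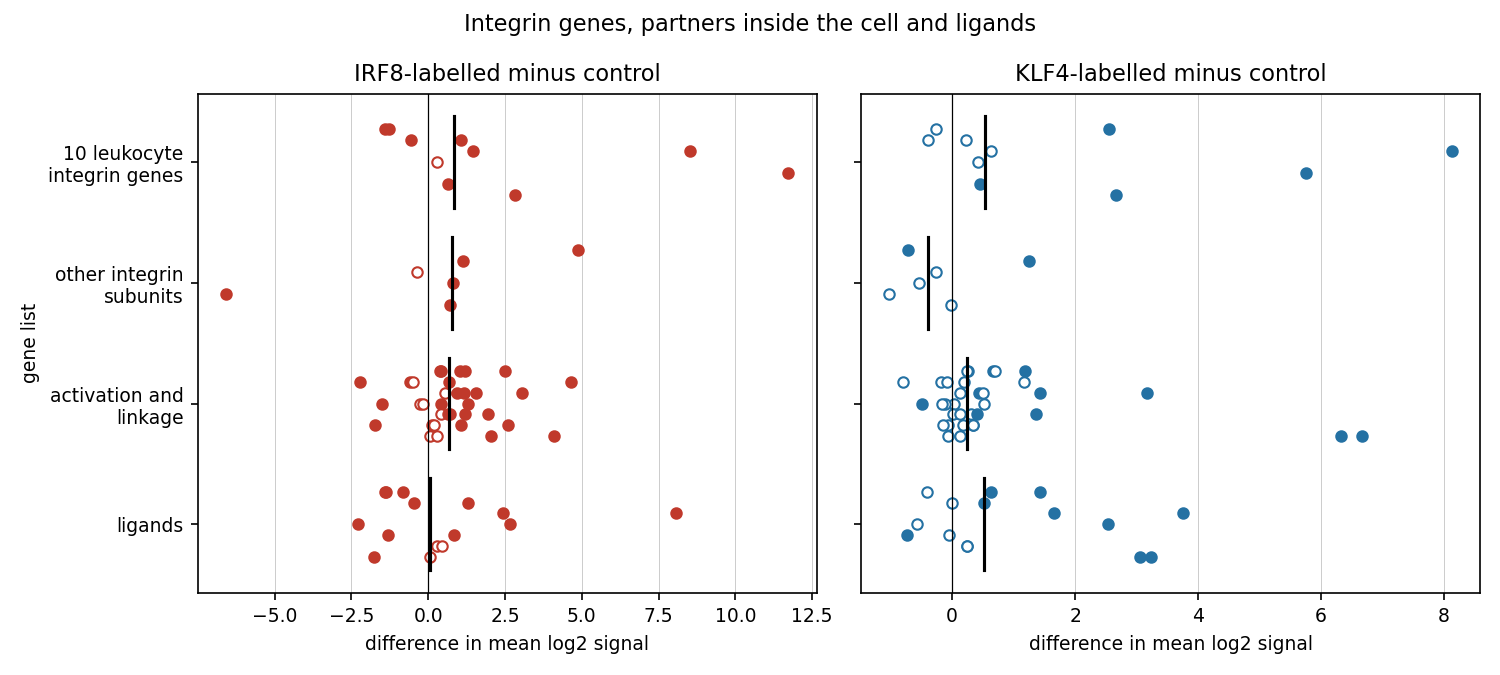
Difference in mean log2 signal from control for the tested genes of each list, with a vertical bar at the list median and filled symbols for adjusted p under 0.05; the horizontal scales of the panels differ. The 10 leukocyte integrin genes have medians of 0.84 and 0.54, and ligand genes lie on both sides of 0 in IRF8-labelled cells.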

How the data were processed

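Total RNA of Tot2 cells was read on 6 Agilent arrays, 2 per group. Per the file headers, the deposited values are intensity of single-colour spots. Agilent Feature Extraction 10.7.3.1 had subtracted a background and corrected spatial trends, and no step had made the arrays alike. In the deposited value table the values are intensity too, each column being the scanner signal times a factor of 0.642 to 1.388, and served as an alternative. No mapping of reads or genome build applies, and probe sequences were not used here.

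Control spots were left out, replicate spots averaged and 75 probes with marked spots dropped. Log2 processed signal minus each array's 75th percentile was fitted with limma 3.58.1 in R 4.3.3 over all 6 arrays (3 residual degrees of freedom). The probe with the highest mean signal stood for a gene. Where a group had no array above background and the other had both, the fold change is a lower bound: the bright group's mean against, per array, the higher of the lowest signal well above background (log2 -5.42 to -4.32) and the probe's own.

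Replicate numbers pair the arrays: deviations from the group means correlated at r = 0.282, 0.321 and 0.391 across genes, and the number follows experiment, slide and scan. The replicate block was an alternative, as were 3 other scalings (quantile, median, 8 spike-in probes), normexp with an offset of 50, filters on dim probes, a floor, other probe rules, limma's trend and robust settings, and leaving out each array. Normexp used each spot's median signal in place of the mean signal first chosen. The fit was tested on simulated data with 200 changed genes of 13247 and independent noise. It recovered 55.6% of changes of log2 1 and 84.3% of log2 2, with 5.40% of calls false. The real arrays are paired and had far more genes called, so that these rates may not hold for them.

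All 10 members are named, then up to 4 genes past the threshold with the largest change per list and comparison, 3 nearest genes per member, and Irf8, Klf4, Csf1r and Adgre1; Itgad was named after its values were seen. A gene that this rule names is not reported here. Members and lists were chosen with earlier results of these data known. Lists are described by counts and medians with no test.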

Additional observations from a re-analysis of the deposited data

Results flagged for a closer look

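For 5 integrin genes the IRF8-labelled and KLF4-labelled groups differed when tested directly, which is also the test of whether their changes from the shared control differ (limma, Benjamini-Hochberg adjusted over 13247 genes, of which 50.5% passed). Itgax was higher in IRF8-labelled cells by 5.96 on the log2 scale, and Itgam and Itgal by 0.82 each. Itga4 was lower in IRF8-labelled cells, at -1.0. Itgb3 was at least 9.43-fold lower there, a bound because both IRF8-labelled arrays were below background; the fitted difference was -3.95. The arrays of the groups did not overlap for any of the 5 genes, as for 75.5% of all genes tested.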

How the results depend on the processing

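Among the 10 integrin genes, the calls of Itgam, Itgax, Itga4, Itgb2 and Itgb7 in IRF8-labelled cells, of Itgax, Itgb2, Itgb3 and Itgb7 in KLF4-labelled cells, and of Itgax and Itgb3 between those groups held under every alternative run for them. Genes called in IRF8-labelled cells fell from 8146 to 4560 with spike-in scaling, and those between the transduced groups from 6695 to 2646 (6708 to 7717 and 4656 to 6485 without 1 array). In KLF4-labelled cells 2544 genes were called, against 1458 with median scaling, 861 with spike-in scaling, 1052 with normexp, 974 without the filter, 1497 with only the groups compared, 6744 with the replicate block and 881 to 1497 without 1 array. Integrin genes higher in KLF4-labelled cells were 5, against 2 among genes above background on all arrays, 8 with the replicate block and 4 without any 1 array; lower ones were 0, against 1 among genes above background on all arrays, 1 with trend and robust settings and 2 with the replicate block. The filter alone removes Itgax, Itgb3 and Itgb7 from the test; for the other changes the cause was not tested. Between the transduced groups 3 higher became 1 and 2 lower became 1 with spike-in scaling, 2 lower became 1 without the filter and 1 with genes above background on all arrays, and without 1 array they were 2 to 4 and 1 to 2, the 1 coming without IRF8-labelled replicate 1 and without KLF4-labelled replicate 2. The sign turned for Klf4 in KLF4-labelled cells (-0.045 with normexp, -0.17 to 0.17 without 1 array), Itga4 there (0.072 by its second probe), Itgb2 between the transduced groups (-0.0184 with median and -0.0147 with spike-in scaling) and Itgav between them (0.074 with the mean of probes, 0.29 by the second probe and -0.28 to 0.0067 without 1 array). The balance of Itgax with Itgb2 in KLF4-labelled cells turned to -0.17 with normexp. Without 1 array, that of Itgav with Itgb1 in KLF4-labelled cells ran from -0.35 to 0.29 and that of Itgav with Itgb5 between the transduced groups from -0.17 to 0.23. Apart from the calls given with it in the text, the replicate block changed no call of the 10 genes. Normexp shrank changes of dim probes, giving 2.48 for Itgax in KLF4-labelled cells and 1.27 for Itgb3. Spike-in scaling moved the median of all genes to -0.25 in IRF8-labelled cells and to -0.17 between the transduced groups, where median scaling gave -0.17 and no filter 0.14. Dim signals limit Itgax and Itgb7 in control and Itgb3 in control and IRF8-labelled cells to bounds or single arrays.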
